A study of Homo sapiens with 6 samples.

Results

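Small nucleolar RNA host lncRNAs are long non-coding RNAs whose introns or exons carry small nucleolar RNAs (snoRNAs). The genes described were the rows of the count table named SNHG followed by digits only, and GAS5, ZFAS1, EPB41L4A-AS1, DANCR and CYTOR. This rule used names and no measured value, but it was chosen with earlier results of these data known. It found 33 of 60591 rows, and all 33 passed the filter on low counts. All cells came from MDA-MB-231, a triple-negative breast cancer line of human origin, in its bone-homing variant, so the static cells carried the same genotype as the cells under flow. Static cells had no flow, low flow was 1 mL/min and high flow was 15 mL/min, with 2 libraries per condition. The labels assign the low and high names and the design text gives the rates, and the sources used here give no time under flow. The study models fluid shear from mechanical loading of bone in a single cell line, with no bone or host cells named.

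snoRNAs guide chemical changes of ribosomal RNA: box C/D snoRNAs direct ribose methylation, and box H/ACA snoRNAs direct pseudouridylation. Related scaRNAs guide changes of spliceosomal RNA. In human cells most of them are cut from introns during splicing of a host RNA. Many host RNAs begin with a 5′ terminal oligopyrimidine (TOP) tract, a C followed by pyrimidines, which they share with the mRNAs of ribosomal proteins. Several spliced hosts, GAS5 among them, are translated briefly and degraded by nonsense-mediated decay, so their level depends on both transcription and decay.

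At least 1 annotated snoRNA or scaRNA lay inside 31 of the 33, and CYTOR and SNHG27 held none. By name, 12 hosts held box C/D snoRNAs, 11 held box H/ACA snoRNAs, 3 held both kinds and 4 held scaRNAs. SNHG28 held 1 small RNA with no class in its name. The hosts held 152 small RNAs in all, 84 of them in SNHG14.

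Library totals ran from 17822642 to 23544307 counts in static, 45174328 to 47067620 in low flow and 43965176 to 53279537 in high flow. Static libraries were thus the shallowest, and the part of this depth gap in the results was not tested. Static and low flow libraries were in 1 sequencing lane and high flow libraries in another, so the lane cannot be told apart from the flow rate wherever high flow is compared. Nothing in the labels says whether the 2 libraries of a condition came from separate cultures. The p-values then cover the spread between libraries alone, which may be technical. The labels name the cell type as endothelial cancer cells. The line's own markers were high in every library, VIM at 3618 to 5031 CPM (counts scaled to library size) and CD44 at 922.9 to 1053 CPM. The endothelial markers CDH5, VWF and CLDN5 stayed at or below 0.0869, 0.221 and 0.0234 CPM. Others were present: ROBO4 at 41.08 to 56.91 CPM, TIE1 at 29.86 to 44.22 CPM and ESAM at 24.34 to 37.51 CPM. PECAM1 was at 8.325 to 14.09 CPM and EGFL7 at 8.346 to 9.988 CPM. In all, 6 of 12 endothelial genes had a mean of at least 1 CPM. Their summed level was 115.2 to 144.2 CPM in static, 140.4 to 152 CPM in low flow and 158.2 to 159.7 CPM in high flow, and its part in the results was not tested.

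The start sites are shown for hosts that differ in sequence and in response. Each window holds 50 bases before and 50 bases from the RefSeq start on GRCh38.p14, 5′ to 3′ on the transcribed strand. Capitals mark TATAA in the 50 bases before the start, and a C with at least 4 further pyrimidines at the start. SNHG5 (chr6:85678684-85678783, minus strand) and ZFAS1 (chr20:49278592-49278691, plus strand) have both features and fell under both flow rates. SNHG12 and SNHG19, not shown, also have both features and did not pass against static. Their log2 fold changes under low and high flow were -0.23 and -0.08 for SNHG12, and 0.25 and 0.47 for SNHG19. SNHG32 (chr6:31834866-31834965, plus strand) has the tract without TATAA and passed no test. SNHG17 (chr20:38435279-38435378, minus strand) has neither and fell under low flow. SNHG29 (chr17:16438937-16439036, plus strand), the most abundant host, has neither and passed no test.
SNHG5: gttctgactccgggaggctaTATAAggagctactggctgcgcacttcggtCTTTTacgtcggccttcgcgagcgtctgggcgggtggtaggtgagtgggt
ZFAS1: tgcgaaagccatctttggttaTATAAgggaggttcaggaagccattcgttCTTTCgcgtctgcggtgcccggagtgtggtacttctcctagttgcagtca
SNHG32: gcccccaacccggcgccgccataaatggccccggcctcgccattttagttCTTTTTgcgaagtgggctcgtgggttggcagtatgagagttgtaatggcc
SNHG17: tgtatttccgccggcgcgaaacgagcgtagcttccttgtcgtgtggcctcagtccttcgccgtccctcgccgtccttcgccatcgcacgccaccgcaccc
SNHG29: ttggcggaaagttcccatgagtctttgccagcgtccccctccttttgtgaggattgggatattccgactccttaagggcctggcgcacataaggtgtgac

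RefSeq gave a start for 29 of the 33 hosts. The pyrimidine start was present in 7 of these 29 (24.1%): SNHG4, SNHG5, SNHG12, SNHG18, SNHG19, SNHG32 and ZFAS1. It was present in 1429 of all 35116 promoters listed (4.07%), in 44 of 316 other snoRNA hosts (13.9%) and in 47 of 82 cytosolic ribosomal protein genes (57.3%). These 316 hold a snoRNA or scaRNA in an intron or an exon. TATAA, searched in the 50 bases before the start, was present on the transcribed strand in 6 of 29 hosts (20.7%) and in 1663 of all promoters (4.74%). On either strand it was present in 6 hosts (20.7%) and in 6.08% of all promoters. The hosts with TATAA were SNHG5, SNHG7, SNHG8, SNHG12, SNHG19 and ZFAS1. These matches describe letters at annotated starts and were not tested for a role.

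The host RNAs covered a wide range of abundance. A mean of at least 10 CPM was reached by 20 of them and of at least 100 CPM by 5, whereas 10 lay from 1 to under 10 CPM and 3 under 1 CPM. The summed level of the 33 was 2079 and 1890 CPM in the static libraries, 1777 and 1696 CPM under low flow, and 1697 and 1744 CPM under high flow. Both static sums lay above every sum under flow. SNHG29 alone supplied 23.98 to 29.11% of the sum, and SNHG29, GAS5, SNHG5, ZFAS1, SNHG3 and SNHG1 together 58.78 to 61.17%.

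Levels of different hosts were compared per kilobase of merged annotated exons. SNHG29, host of SNORD49A, SNORD49B and SNORD65, led with a mean of 126.5 CPM per kb (range 121.6 to 132.6 over 6 libraries), and its range lay apart from that of the next host. ZFAS1 at 51.55, SNHG8 at 50.37, SNHG5 at 46.12, GAS5 at 45.6 and SNHG32 at 42.6 CPM per kb followed, and each range overlapped that of its neighbour in the order. Per kilobase of the longest transcript SNHG29 again led at 286.2 CPM per kb, and SNHG5 came next at 125.4 and ZFAS1 at 107.6 CPM per kb.

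**Figure D1:**
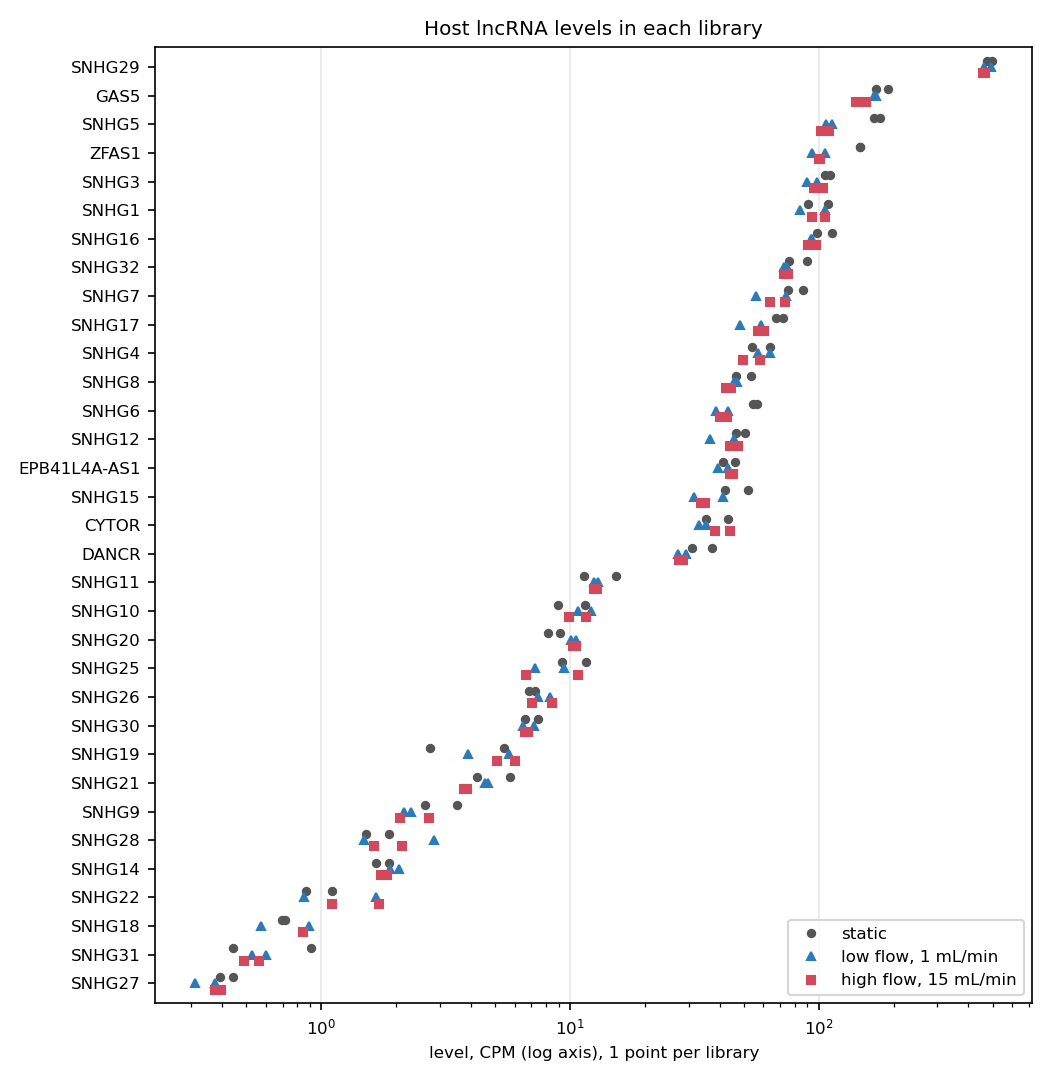
Level of each host in each library (CPM, log axis), with 1 point per library coloured by condition. SNHG29 lies highest, 20 hosts have a mean of at least 10 CPM, and the static points of SNHG5 and ZFAS1 lie above those of both flow conditions.

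Under low flow 4 host RNAs were lower than in static cells and 0 were higher (edgeR quasi-likelihood test, adjusted p under 0.05). The 4 were SNHG5, ZFAS1, SNHG6 and SNHG17, or 12.1% of 33, against 3.49% of all 20676 genes tested that were called lower and 3.25% called higher. At an unadjusted p under 0.05, 8 hosts were lower and 0 higher, against 11.7% of all genes in each direction. DESeq2 also called 4 hosts lower. The median log2 fold change of the hosts was -0.11, and 24 of 33 were below 0; the median of all genes was 0.01. Both libraries of low flow lay below both static libraries for 14 hosts and above them for 3, against backgrounds of 26.3% and 27.1% of genes. Among the 20 hosts with at least 10 CPM, 4 (20%) were lower and 0 higher, against 5.46% and 4.9% of all genes at that level. Leaving out 1 library changed the count of hosts called lower: it was 1 without the second static library, 2 without the first static or the second low flow library, and 7 without the first low flow library.

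Under high flow 4 host RNAs were likewise lower than in static cells and 0 were higher. These were SNHG5, ZFAS1, SNHG6 and SNHG15, again 12.1%, against 6.43% of all genes called lower and 7.49% called higher. At an unadjusted p under 0.05, 7 hosts were lower and 0 higher, against 14.3% and 15% of all genes. DESeq2 called 5 hosts lower, GAS5 being the addition. With offsets for transcript length and GC content, 3 of 32 hosts were lower and 0 higher, SNHG6 being lost. Of 20000 genes in that fit, 1179 were lower and 929 higher. In the main fit, gene GC content and fold change were correlated under high flow (Spearman rho 0.402 over 15231 genes). The median log2 fold change was -0.12 against 0.00 for all genes, and 22 of 33 hosts were below 0. Groups did not overlap for 14 hosts below static and 3 above, against backgrounds of 29.4% and 29.9%. Among hosts with at least 10 CPM, 4 of 20 (20%) were lower and 0 higher, against 8.35% and 11% of all genes at that level. The count was 1 without the first high flow library and 2 without the second high flow library or either static library. Both comparisons use the same 2 static libraries, so they are not independent of each other.

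No host passed the test between the flow rates. Between high and low flow edgeR called 0 of 33 higher and 0 lower, against 0.242% and 0.0919% of all genes, and DESeq2 also called 0. Among genes with at least 10 CPM, 0.338% were higher and 0.131% lower. At an unadjusted p under 0.05, 1 host was higher and 0 were lower, against 5.08% and 4.54% of all genes. That host was CYTOR, with a log2 fold change of 0.27 (SE 0.11, edgeR adjusted p = 0.459). Log2 fold changes of the hosts ran from -0.27 to 0.27 with a median of 0.01. High flow lay below low flow without overlap for 4 hosts and above it for 3, against backgrounds of 21.5% and 21.2%.

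**Figure D2:**
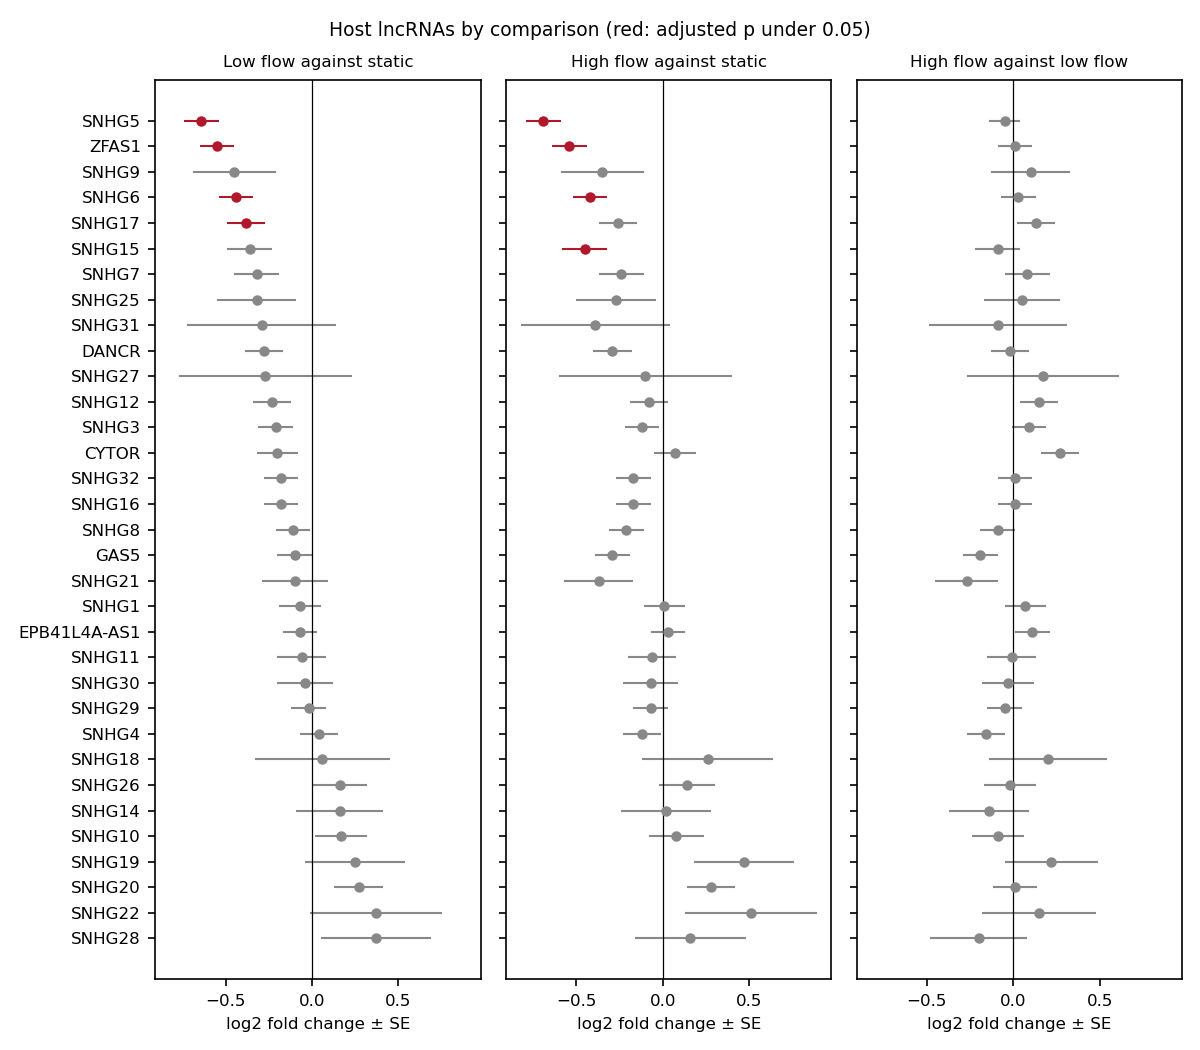
Log2 fold change of each host in the 3 comparisons, from edgeR, with bars of 1 SE and red points for an adjusted p under 0.05. SNHG5 lies lowest in both comparisons with static, at -0.64 and -0.69, and no host above 0 is red.

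Among box C/D hosts, 3 of 12 fell in each comparison with static, and the median log2 fold change was -0.05 under low flow and -0.07 under high flow. Over all genes 3.49% were called lower under low flow and 6.43% under high flow. SNHG5 (chr6:85660950-85678748, minus strand), host of SNORD50A and SNORD50B, changed most. Its level was 175.9 and 167.7 CPM in static, 113.4 and 106.9 CPM under low flow, and 110.3 and 102.2 CPM under high flow. Both static values lay above all 4 values under flow, and the ranges of the flow rates overlapped. The mean fell 1.56-fold under low flow, from 171.8 ± 5.79 to 110.1 ± 4.54 CPM (SD, n = 2 libraries; log2 fold change -0.64, SE 0.10, edgeR adjusted p = 0.00123). Under high flow it was 106.3 ± 5.73 CPM, 1.617-fold lower (log2 fold change -0.69, SE 0.10, edgeR adjusted p = 0.000279).

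ZFAS1 (chr20:49278178-49295738, plus strand), named as an antisense RNA of the neighbouring gene ZNFX1, hosts SNORD12, SNORD12B and SNORD12C. Its level was 146.3 and 146.1 CPM in static, 106.5 and 93.62 CPM under low flow, and 100.5 and 100.8 CPM under high flow. Static again lay above flow without overlap, and the high flow values fell between those of low flow. The decrease was 1.461-fold under low flow (log2 fold change -0.55, SE 0.10, edgeR adjusted p = 0.00471) and 1.453-fold under high flow (log2 fold change -0.54, SE 0.10, edgeR adjusted p = 0.00209). The low flow call was lost without the second static library (edgeR adjusted p = 0.0539), and the high flow call without the first high flow library (edgeR adjusted p = 0.0576).

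SNHG6, host of SNORD87 on chromosome 8, measured 56.57 and 54.42 CPM in static, 43.18 and 38.51 CPM under low flow, and 43.01 and 40.20 CPM under high flow. The static values did not overlap those of either flow rate. SNHG6 was 1.358-fold lower under low flow (log2 fold change -0.44, SE 0.10, edgeR adjusted p = 0.0166) and 1.334-fold lower under high flow (log2 fold change -0.42, SE 0.10, edgeR adjusted p = 0.0126). The low flow call was lost without the first static library (edgeR adjusted p = 0.0667), the second static (0.0912) or the second low flow library (0.183). The high flow call was lost without the first static (edgeR adjusted p = 0.0501), the second static (0.0758), the first high flow (0.0947) or the second high flow library (0.113). With offsets for transcript length and GC content the high flow call was lost and the log2 fold change was -0.18 (edgeR adjusted p = 0.198). Gene GC content and fold change were correlated across 15231 genes, with a Spearman rho of 0.0889 under low flow and 0.402 under high flow. For high against low flow rho was largest, at 0.593. Genes are not independent replicates.

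SNHG29, the most abundant host, did not pass in either comparison. SNHG29 (chr17:16438822-16478678, plus strand) measured 498.4 and 473.7 CPM in static, 462.5 and 493.8 CPM under low flow, and 468.4 and 457.1 CPM under high flow. Its log2 fold changes were -0.02 (SE 0.10, edgeR adjusted p = 0.918) and -0.07 (SE 0.10, edgeR adjusted p = 0.672). SNHG32 (chr6:31834608-31839766, plus strand), host of SNORD48 and SNORD52, was at 90.03 and 75.94 CPM in static, 74.42 and 72.44 CPM under low flow, and 72.33 and 75.19 CPM under high flow. Static lay above flow, but the log2 fold changes of -0.18 and -0.17 did not pass (edgeR adjusted p = 0.314 and 0.282). Of the exons of SNHG32, 23.2% overlap another gene, AL671762.1, on the same strand, which makes its counts uncertain. SNHG1, host of SNORD22 and the SNORD25 to SNORD31 group, had log2 fold changes of -0.07 and 0.01, and SNHG16 had -0.18 and -0.17; none of these passed. SNHG14, the imprinted transcript that runs antisense to UBE3A, averaged 1.762 CPM in static, 1.973 CPM under low flow and 1.786 CPM under high flow.

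Among 11 box H/ACA hosts, 1 fell in each comparison and none rose, and the medians were -0.28 under low flow and -0.24 under high flow. Over all genes 3.49% and 6.43% were called lower, and over genes with at least 10 CPM 5.46% and 8.35%. For high flow, 1 of 11 is near the share at that level. SNHG17 (chr20:38420588-38435353, minus strand), which carries SNORA71A, SNORA71B, SNORA71C and SNORA71D, measured 72.17 and 67.68 CPM in static, 58.85 and 48.30 CPM under low flow, and 56.96 and 60.08 CPM under high flow. Its values under flow all lay below static. It passed under low flow, 1.305-fold lower (log2 fold change -0.38, SE 0.11, edgeR adjusted p = 0.0383), and not under high flow (log2 fold change -0.26, SE 0.11, edgeR adjusted p = 0.117). The low flow call was lost in 7 of 13 alternative analyses, among them those without the first static (edgeR adjusted p = 0.145), the second static (0.137), the second low flow (0.454), the first high flow (0.081) or the second high flow library (0.0783). With a replicate block it was also lost (edgeR adjusted p = 0.0551).

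SNHG15 (chr7:44983023-44986961, minus strand), host of SNORA9, passed under high flow alone. Its level was 51.77 and 42.21 CPM in static, 41.34 and 31.55 CPM under low flow, and 33.51 and 34.96 CPM under high flow. The static and low flow libraries each spread widely, and every static value lay above every value under flow. The decrease of 1.37-fold under high flow passed (log2 fold change -0.45, SE 0.13, edgeR adjusted p = 0.0322), and the log2 fold change of -0.36 under low flow did not (SE 0.13, edgeR adjusted p = 0.107). The high flow call was lost without the first static (edgeR adjusted p = 0.21), the second static (0.0646), the first high flow (0.219) or the second high flow library (0.114). Without the first low flow library the low flow value passed (log2 fold change -0.57, edgeR adjusted p = 0.00198). Neither host passed between high and low flow, with log2 fold changes of 0.13 for SNHG17 (edgeR adjusted p = 0.741) and -0.09 for SNHG15 (edgeR adjusted p = 0.869).

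The other box H/ACA hosts did not pass. SNHG8 (chr4:118278709-118279823, plus strand), host of SNORA24, measured 53.37 and 46.73 CPM in static, 45.59 and 46.76 CPM under low flow, and 44.25 and 42.24 CPM under high flow. Its low flow values overlapped static, its high flow values lay below, and the log2 fold changes were -0.11 (edgeR adjusted p = 0.540) and -0.21 (edgeR adjusted p = 0.181). DANCR, named for its role against differentiation, came closer to the threshold, with log2 fold changes of -0.28 (edgeR adjusted p = 0.147) and -0.29 (edgeR adjusted p = 0.0937). SNHG7 had -0.32 and -0.24, SNHG3 had -0.21 and -0.12, EPB41L4A-AS1 had -0.07 and 0.03, and SNHG4 had 0.04 and -0.12. Of SNHG4's exons, 14.0% overlap those of MATR3 on the same strand.

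GAS5 (chr1:173863900-173868882, minus strand), a host of many box C/D snoRNAs and 1 of the best known targets of nonsense-mediated decay, passed in neither comparison. It measured 190.8 and 169.8 CPM in static, 167.3 and 169.7 CPM under low flow, and 141.3 and 154.5 CPM under high flow. The upper low flow value lay close under the lower static value, and both high flow values lay below all others. The log2 fold change was -0.10 under low flow (SE 0.10, edgeR adjusted p = 0.595) and -0.29 under high flow (SE 0.10, edgeR adjusted p = 0.059). The high flow value passed in 4 of 12 alternative analyses, among them those without the first (edgeR adjusted p = 0.0404) or the second low flow library (0.0411). With offsets for length and GC content it was -0.10 (edgeR adjusted p = 0.454), and without the first static library -0.20 (edgeR adjusted p = 0.256). High against low flow gave -0.19 (SE 0.10, edgeR adjusted p = 0.561). The other hosts of both kinds, SNHG12 and SNHG25, did not pass.

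The 4 scaRNA hosts had a median log2 fold change of 0.22 under low flow and 0.18 under high flow, and none passed. SNHG22 had log2 fold changes of 0.37 and 0.51 with an SE of 0.38 in each, and SNHG20 had 0.27 and 0.28. SNHG10 had 0.17 and 0.08. SNHG21 lay below 0, at -0.10 (edgeR adjusted p = 0.807) and -0.37 (edgeR adjusted p = 0.216), and its high flow values did not overlap static. Of the exons of SNHG21, 72.9% overlap another gene, AC105339.2, on the same strand, which makes its counts uncertain. CYTOR, a cytoskeleton regulator RNA that holds no annotated snoRNA, measured 43.33 and 35.25 CPM in static, 32.91 and 35.37 CPM under low flow, and 38.19 and 43.86 CPM under high flow. Its log2 fold changes of -0.20 and 0.07 did not pass, and the static range overlapped both others. SNHG19 was at 5.458 and 2.738 CPM in static, 3.907 and 5.673 CPM under low flow, and 5.101 and 6.027 CPM under high flow, and its log2 fold changes were 0.25 and 0.47. Without the first static library SNHG19 was called higher under high flow, with a log2 fold change of 1.03 (edgeR adjusted p = 0.035).

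**Figure D3:**
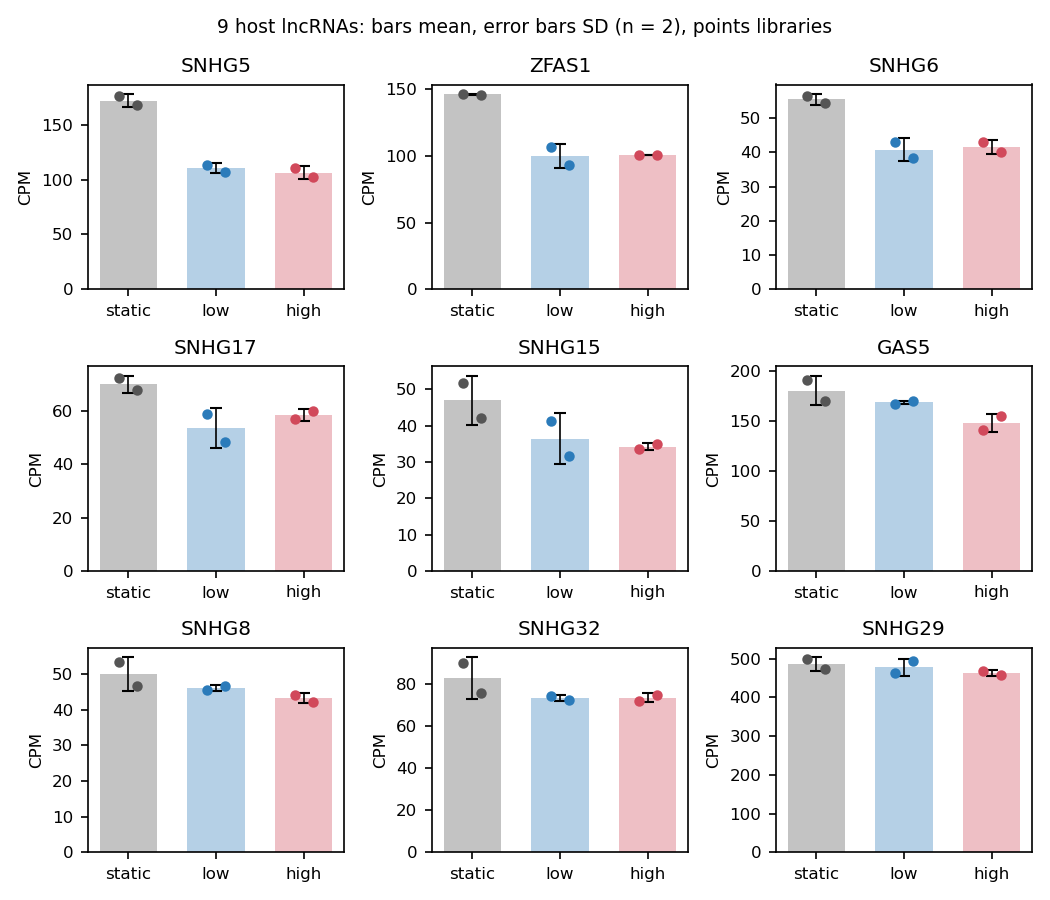
CPM of the named hosts in every library, with points for libraries, bars for the mean of 2 and error bars for the SD. For SNHG5, ZFAS1, SNHG6, SNHG17 and SNHG15 both static points lie above every point under flow, whereas SNHG29 overlaps static under low flow.

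Hosts with and without the pyrimidine start were set side by side. Of the 7 with it, 2 (SNHG5 and ZFAS1) fell in each comparison, with medians of -0.18 under low flow and -0.12 under high flow. Of the 22 with another start, 1 fell under low flow and 0 under high flow, with medians of -0.09 and -0.07. The split reads only the RefSeq start, so the 22 may include hosts whose RNA begins with the tract at another site. The same rule found the tract in 47 of 82 ribosomal protein genes (57.3%). GAS5 is among the 22. Its RefSeq start (173869045, minus strand) lies upstream of its GENCODE gene, which begins at 173868882, and that site was not examined. SNHG6 and SNHG15 have no entry in the promoter table. Over all genes 3.49% were called lower under low flow and 6.43% under high flow. The difference between the kinds of start was not tested.

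The small RNAs inside the hosts were counted as genes of their own. snoRNAs have no poly(A) tail, and these libraries were made from poly(A) RNA, so the counts hold what escaped that selection together with reads of host RNA. Of 134 small RNAs with a row, 45 from 24 hosts passed the filter, 28 of them at least partly inside merged host exons. Merged exons pool all annotated transcripts of a host, so a small RNA inside them can lie in an intron of some transcripts. None of the 11 annotated in GAS5 had a row. Under low flow 0 were higher and 2 (4.44%) were lower, and under high flow 2 (4.44%) were higher and 1 (2.22%) was lower, beside the same shares of all genes given above. Between the flow rates 0 passed in either direction by edgeR, and at an unadjusted p under 0.05, 7 of 45 were higher and 0 lower. Beside this stood 20 of 142 other snoRNAs and scaRNAs higher and 4 lower, and 5.08% and 4.54% of all genes. The medians were -0.17, 0.21 and 0.28, against -0.23, -0.05 and 0.21 for 142 other snoRNAs and scaRNAs.

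Box C/D snoRNAs of the hosts that fell most are shown because SNORD50B passed the test in both comparisons with static and SNORD12 in neither. Capitals mark box C (TGATGA) and box D (CTGA), each found within 20 bases of an end on the transcribed strand. Both boxes were present in 186 of 275 annotated box C/D transcripts (67.6%). The sequences are from GENCODE 29 on GRCh38. SNORD50B is at chr6:85677589-85677658 on the minus strand within the merged exons of SNHG5. SNORD12 is at chr20:49280683-49280772 on the plus strand within the merged exons of ZFAS1.
SNORD50B: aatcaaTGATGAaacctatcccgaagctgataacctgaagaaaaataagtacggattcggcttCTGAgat
SNORD12: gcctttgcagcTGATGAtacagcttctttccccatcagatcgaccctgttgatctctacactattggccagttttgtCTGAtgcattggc

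SNORD50B fell far more than its host. It measured 5.348 and 5.651 CPM in static, 1.251 and 0.5403 CPM under low flow, and 0.468 and 0.6947 CPM under high flow. Static lay above flow without overlap. The decrease was 6.158-fold under low flow (log2 fold change -2.62, SE 0.32, edgeR adjusted p = 0.000355) and 9.306-fold under high flow (log2 fold change -3.22, SE 0.33, edgeR adjusted p = 3.35e-05). High against low flow did not pass (log2 fold change -0.60, SE 0.36, edgeR adjusted p = 0.627). SNORD50A has no row in the table.

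Because SNORD50B lies within the merged exons of SNHG5, its reads may count for both genes. The static level of SNHG5 exceeded low flow by 61.68 CPM and high flow by 65.57 CPM, and that of SNORD50B did so by 4.604 and 4.918 CPM, or 7.463% and 7.5% of those differences. With the SNORD50B level subtracted, the log2 ratio of mean SNHG5 levels was -0.61 under low flow and -0.65 under high flow. RN7SK, a small nuclear RNA that also lacks a poly(A) tail, moved with SNORD50B. It measured 29.5 and 36.47 CPM in static, 6.212 and 3.242 CPM under low flow, and 3.065 and 3.455 CPM under high flow. Its log2 fold changes were -2.81 (edgeR adjusted p = 0.00469) and -3.34 (edgeR adjusted p = 0.00102). Of other RNAs of this kind, RMRP had -1.23 (edgeR adjusted p = 0.177) and RPPH1 -0.74 (edgeR adjusted p = 0.138) under low flow. Under high flow they had -1.22 (edgeR adjusted p = 0.139) and -0.43 (edgeR adjusted p = 0.34), and the RPPH1 values overlapped static. The part of poly(A) selection in the SNORD50B result was not tested.

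Of the other small RNAs, 3 passed, each in 1 comparison. SNORA71C, in an intron of SNHG17, measured 2.426 and 2.26 CPM in static, 1.054 and 0.852 CPM under low flow, and 1.474 and 1.239 CPM under high flow. It was 2.453-fold lower under low flow (log2 fold change -1.29, SE 0.28, edgeR adjusted p = 0.0128) and missed the threshold under high flow (log2 fold change -0.79, edgeR adjusted p = 0.06). SNORA44 rose under high flow while its host SNHG12 had a log2 fold change of -0.08. SNORA44 measured 3.253 and 3.391 CPM in static and 5.382 and 5.595 CPM under high flow (log2 fold change 0.72, SE 0.19, edgeR adjusted p = 0.0197). SNORD48 of SNHG32 measured 1.489 and 0.869 CPM in static and 2.129 and 2.272 CPM under high flow (log2 fold change 0.93, SE 0.29, edgeR adjusted p = 0.0408). The SNORD12 snoRNAs of ZFAS1 did not pass.

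**Figure D4:**
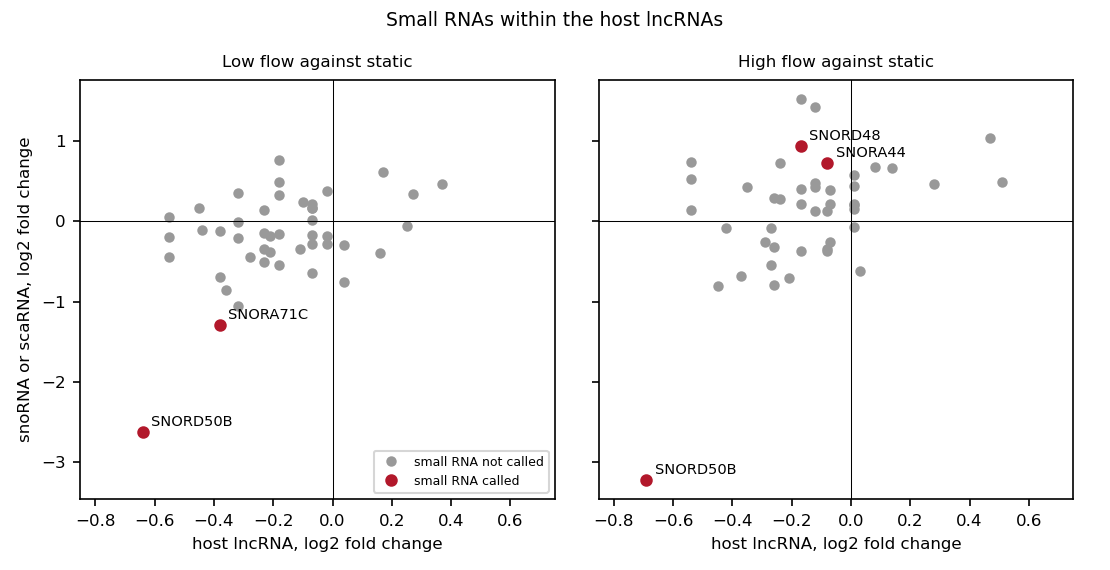
Log2 fold change of each tested small RNA against that of its host, for low flow and high flow against static, with red points for small RNAs with an adjusted p under 0.05. SNORD50B lies lowest in both, at -2.62 and -3.22, beside host values of -0.64 and -0.69.

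Other annotated snoRNA hosts, here only those with a snoRNA or scaRNA outside their exons, were set beside these lncRNAs. Of 215 tested, 4 (1.86%) were higher and 12 (5.58%) lower under low flow, with a median log2 fold change of -0.04. Under high flow 6 (2.79%) were higher and 29 (13.5%) lower, with a median of -0.08. Other lncRNAs had medians of 0.03 in both comparisons, with 58 of 3533 (1.64%) higher and 39 (1.1%) lower under low flow. Under high flow 102 (2.89%) were higher and 127 (3.59%) lower.

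Genes for the proteins that build snoRNA particles were counted in the same fit. This list and the lists that follow were also chosen with earlier results of these data known. Of 19 tested core and assembly genes, 6 fell and 0 rose under low flow (median log2 fold change -0.30), and 8 fell and 0 rose under high flow (median -0.26). The genes that fell were 31.6% and 42.1% of this list, against 3.49% and 6.43% of all genes. NOP58, a core box C/D protein, went from 230.6 ± 17.41 CPM in static to 166.1 ± 26.03 CPM under low flow (edgeR adjusted p = 0.0167) and 156.4 ± 4.357 CPM under high flow (SD, n = 2 libraries; edgeR adjusted p = 0.00365). DKC1, the pseudouridine synthase of box H/ACA particles, had log2 fold changes of -0.50 (edgeR adjusted p = 0.0106) and -0.51 (edgeR adjusted p = 0.00495). RUVBL1, an assembly ATPase, had -0.51 (edgeR adjusted p = 0.0079) and -0.44 (edgeR adjusted p = 0.00801). NOLC1, a nucleolar chaperone of these particles, had -0.51 (edgeR adjusted p = 0.0144) and -0.45 (edgeR adjusted p = 0.0165).

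Genes of nonsense-mediated decay come next. Of 20 decay factors, 2 fell and 0 rose under low flow, and 4 fell and 1 rose under high flow, with medians of -0.09 and -0.07. The factors that fell were 10% and 20%, against 3.49% and 6.43% of all genes. The factor that rose under high flow was 5%, against 7.49% of all genes. UPF3B, which links exon junctions to decay, went from 36.07 ± 1.424 CPM in static to 23.7 ± 3.983 CPM under low flow (SD, n = 2 libraries; edgeR adjusted p = 0.0079). MAGOH, an exon junction protein, had a log2 fold change of -0.36 (edgeR adjusted p = 0.0374). Under high flow the 4 that fell were DCP2, a decapping enzyme, at -0.60 (edgeR adjusted p = 0.00197), UPF3B at -0.62, MAGOH at -0.35 and UPF3A at -0.34. The 1 that rose was SMG8, a regulator of the SMG1 kinase, at 0.33 (edgeR adjusted p = 0.0452), named after its value was seen. The list of decay targets shares SMG1, SMG5 and UPF1 with that of the decay factors. Of 20 mRNAs known as decay targets, 0 rose in either comparison, 1 (5%) fell under low flow and 3 (15%) under high flow. Against this, 3.49% and 6.43% of all genes were called lower, and 5.46% and 8.35% of genes with at least 10 CPM. The target that fell under low flow was GADD45A, a stress-response gene, at -0.64 (edgeR adjusted p = 0.0215). Those that fell under high flow were ASNS at -0.55, DDIT3 at -0.62 and SLC7A11 at -0.31.

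Of 28 TOP mRNAs other than those of ribosomal proteins, 3 (10.7%) fell under low flow and 2 (7.14%) under high flow, and 0 rose. Against this, 3.49% and 6.43% of all genes were called lower, and 5.46% and 8.35% of genes with at least 10 CPM. The high flow share was thus near that of all genes. The medians of the TOP mRNAs were -0.15 and -0.14. NPM1, a nucleolar chaperone, went from 1676 ± 112.7 CPM in static to 1186 ± 57.35 CPM under low flow (edgeR adjusted p = 0.0128) and 1105 ± 32.99 CPM under high flow (SD, n = 2 libraries; edgeR adjusted p = 0.00215). EEF1B2, a translation elongation factor subunit, had log2 fold changes of -0.38 in both comparisons (edgeR adjusted p = 0.0224 and 0.0124). PABPC1, the cytoplasmic poly(A)-binding protein, had -0.37 under low flow (edgeR adjusted p = 0.0439). Between high and low flow 0 genes of these 4 lists passed in either direction by edgeR, and at an unadjusted p under 0.05 the counts higher and lower were 1 and 0 for particle proteins, 2 and 2 for decay factors, 3 and 3 for decay targets, and 0 and 0 for TOP mRNAs, against 5.08% and 4.54% of all genes.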

How the data were processed

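RNA was measured in 6 libraries, 2 for each condition. The labels' protocols name lysis in TRIzol, poly(A) RNA and a KAPA stranded kit. The authors deposited raw counts for each gene symbol in 60591 rows. The submitters' processing notes list STAR, featureCounts and hg38, without versions; which annotation they counted on is not given. Columns were matched to samples by the names in the labels, and 0 were left unmapped.

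The quasi-likelihood test of edgeR (version 4.0.16, R 4.3.3) was run on the counts with TMM, robust dispersion and all 6 libraries together, leaving 3 residual degrees of freedom. The default filter, set to a minimum count of 10, kept 20676 genes. Tests were two-sided, with Benjamini-Hochberg adjustment over all genes tested in a comparison and a threshold of 0.05. CPM was computed from the deposited counts with TMM factors, and values per kilobase divide it by merged exon length. The libraries of a condition were not copies (chi-square per degree of freedom 17.5, 33.2 and 13.3 in static, low and high flow).

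Positions are those of GENCODE 29 on GRCh38, where 56490 of 60591 rows and 32 of the 33 hosts matched 1 gene; SNHG28 did not. snoRNAs inside a host were those on its strand in GENCODE 29 or, by position alone, in RefSeq. Genes inside an exon of another gene had a median of 0.0113 of its count density on the opposite strand (234 pairs) and 0.423 on the same strand (48 pairs), so same-strand overlaps share reads.

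The members and lists were chosen with earlier results of these data known. Values in every library were given for members that passed in any comparison and the 6 with the highest CPM per kilobase, and up to 4 passing genes of each list were named by p. CYTOR, SNHG19, the snoRNAs and RN7SK were described after their values were seen. Alternatives were RLE size factors, no filter, DESeq2 1.42.0, the 4 compared libraries alone, length and GC offsets, a replicate block and leaving out each library. The fit was tested on simulated data. It recovered 50.7% of 1.5-fold changes in low flow against static, 65.7% in high flow against static and 56.7% in high against low flow. In the same order, 9, 17 and 18 unchanged genes were called. Each simulation changed 67 genes 1.5-fold, 67 genes 2-fold and 66 genes 3-fold. The recovered shares are over genes drawn at random from a mean of 1 CPM upwards, not over the hosts. A host that did not pass may still differ, by a size that depends on its SE. Under low flow that SE was 0.10 for SNHG29 and 0.38 for SNHG22.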

Additional observations from a re-analysis of the deposited data

How the results depend on the processing

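Across 370 alternative values for the named hosts and SNORD50B, 328 kept their direction and their side of the threshold, 21 lost a call, 6 gained one and 15 changed sign. Most of the 370 belong to values not called in the main fit, which had no call to lose, so the 328 do not measure how stable the calls were. SNHG5 kept its call in all 13 alternatives under low flow (adjusted p up to 0.018) and all 12 under high flow (up to 0.0131), and SNORD50B did so too (up to 0.0263 and 0.00447). SNHG6 lost its call in 3 of 13 and 5 of 12, and SNHG15 lost its high flow call in 4 of 12. SNHG17 lost its low flow call in 7 of 13, and ZFAS1 lost its call in 1 of 13 and 1 of 12. Leaving out 1 library moved the number of hosts called lower from 1 to 7 under low flow and from 1 to 5 under high flow, and the number called higher under high flow from 0 to 1. It was 1 lower under low flow without the second static library, 2 without the first static or the second low flow library, and 7 without the first low flow library. Under high flow it was 1 without the first high flow library and 2 without the second high flow library or either static library. The cause of these changes was not tested. A lone remaining library was assumed to vary like the other groups.

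The values that changed sign passed in no fit, and the cause was not tested. SNHG29 under low flow became 0.0048 without the filter, 0.04 with offsets, 0.01 without the first static library 0.02 without the first low flow library and -0.07 without the second, and under high flow 0.03 with offsets, against -0.10 to -0.03 with libraries left out. The rest were in high against low flow. Without the second low flow library these were SNHG17 at -0.01, SNHG29 at 0.0023, SNHG32 at -0.01, SNHG6 at -0.05 and ZFAS1 at -0.08. Without the first low flow library SNHG15 was 0.12, SNORD50B 0.12, SNHG17 0.28, SNHG29 -0.09, SNHG6 0.11 and ZFAS1 0.10, and without the second SNHG15 was -0.27 and SNORD50B -1.08. Without the second high flow library SNHG32 was -0.03, without the first SNHG32 was 0.04 and SNHG6 -0.02, and with offsets ZFAS1 was -0.06.

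Counts over all genes, higher and lower, also moved. Under low flow they were 672 and 722, and 1327 and 933 without the filter, 267 and 337 with 4 libraries alone, 44 and 51 without the second static library, and 1584 and 1527 without the first low flow library. Under high flow they were 1549 and 1329, and 929 and 1179 with offsets, 178 and 122 without the first high flow library, and 234 and 160 without the second static library. For high against low flow they were 50 and 19, and 168 and 73 without the filter, 90 and 24 by DESeq2, 193 and 101 without the second low flow library, 145 and 67 without the first, 21 and 1 without the second high flow library, and 3 and 1 without the first.

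The libraries share only replicate numbers: deviations correlated at -0.23 for static with low flow, 0.00453 for static with high flow and 0.0999 for low with high flow. With the replicate block, 3 hosts were lower under low flow, 4 under high flow and 0 between the flow rates, 0 were higher in any comparison, and all genes gave 411 higher and 496 lower, 1252 and 1014, and 42 and 13. With the static numbers exchanged, chosen after seeing the data, 4 hosts and 1150 genes were lower and 0 hosts and 1079 genes higher under low flow. Both static libraries were the shallowest, and the part of depth in the counts was not tested.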
